A study of Mus musculus with 12 samples.

Results

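Whole mouse embryos at E12.5, that is embryonic day 12.5, were profiled by RNA sequencing, and 38 genes of the skeletal muscle sarcomere and of muscle contraction were followed among the 23420 genes in the count tables. The 38 members were named from what their proteins do in muscle, with earlier results of these data known. They form 9 groups by role. These are myosin chains, myosin-binding proteins, thin filament proteins, the giant scaffold proteins, M-band proteins, and Z-disc and intermediate filament proteins. The others are excitation-contraction coupling, chaperones of assembly, and enzymes of muscle metabolism. Of the 38, 12 are isoforms of fast fibers, 3 of slow fibers and 2 are developmental myosins, while 21 are shared between fiber types. Every member was found in both tables under its listed symbol. In the *Carm1* line, 3 embryos homozygous for the knockout allele *Carm1tm1Mtb* (*Carm1 KO/KO*, labelled *Carm1* null) were compared with 3 wild-type embryos on C57BL/6. In the *Pax3* line, 3 embryos homozygous for the Splotch allele *Pax3Sp2h* (*Pax3 Sp2H/Sp2H*, labelled *Pax3* null) were compared with 3 wild-type embryos from a closed colony of mixed background. Each embryo gave 1 library, litters came from heterozygous parents, and the labels give no treatment. Both alleles act in every cell that uses the gene, and a level in whole-embryo RNA pools muscle with every other tissue. Fewer muscle cells and less RNA per muscle cell therefore cannot be told apart.

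The sarcomere is the repeating unit of striated muscle, in which bundles of myosin pull on filaments of actin. Troponin and tropomyosin sit on the actin filament and hold contraction back until calcium arrives. Titin and nebulin set the length of the filaments, the Z-disc anchors actin, and the M-band crosslinks myosin. Calcium is released from the sarcoplasmic reticulum when the voltage sensor of the muscle membrane opens the ryanodine receptor. At this age of the mouse the first muscle fibers form in the trunk and limbs from precursors of the somites, and PAX3 is needed for those that migrate to the limbs. Primary fibers use embryonic and slow isoforms first, and adult fast isoforms appear later. CARM1 is an arginine methyltransferase that acts as a coactivator of transcription, among others with MEF2C in myogenic cells. The heart also forms sarcomeres, and several members, such as *Ttn*, *Des*, *Tnni1* and *Acta1*, are used there as well.

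The libraries held between 17183344 and 23518692 counts, and log2 levels of replicates had correlations across genes between 0.989 and 0.995. Levels are counts per 1000000 counts of a library (CPM), scaled by the TMM factors of edgeR within each line, so that levels of both lines stand side by side but were scaled apart. *Carm1* had 71.3, 69.3 and 76.2 CPM in *Carm1 KO/KO* embryos and 150.7, 145.5 and 136.9 CPM in their wild-type controls. *Pax3* had 22.4, 22.0 and 18.1 CPM in *Pax3 Sp2H/Sp2H* embryos and 30.9, 25.0 and 28.3 CPM in theirs. Each targeted transcript was thus lower in all 3 mutants of its own line, although neither was absent. Members with a transcript of at least 5 kb (10 tested) varied together between wild-type libraries. Their median log2 deviation from the wild-type mean was 0.20 in *Carm1* line wild-type replicate 1 and 0.18 in *Pax3* line wild-type replicate 1, against -0.15 and -0.17 in replicate 3 of each. An alternative fit used offsets for length and GC content. These offsets were fitted in each library over all genes and without regard to genotype. They therefore cannot single out the part of transcript length in the fold changes of long members, which was not tested.

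The members spanned a wide range of levels in wild-type embryos. Levels of different genes are compared here as CPM per kb of transcript, with transcript lengths from 0.70 to 106.82 kb. *Mylpf*, the fast regulatory myosin light chain, stood highest in the *Carm1* line with 89.7 ± 0.82 CPM per kb (SD, n = 3), followed by the slow troponin T gene *Tnnt1* with 74.9 ± 3.96 and the tropomyosin gene *Tpm2* with 64.3 ± 0.78. The same 3 genes led in the *Pax3* line, where *Tpm2* had 44.4 ± 3.03, *Mylpf* 43.7 ± 3.69 and *Tnnt1* 40.0 ± 3.50 CPM per kb, and these 3 values overlapped across libraries. The embryonic myosin heavy chain *Myh3* had 43.4 ± 5.47 and 23.6 ± 4.94 CPM per kb in the lines, and the perinatal chain *Myh8* had 7.03 ± 0.88 and 2.25 ± 0.65. The adult fast chains lay far below both. *Myh1* had 0.52 ± 0.11 and 0.17 ± 0.053 CPM per kb, and *Myh2* held no more than 10 counts in any library. *Ckm*, the muscle creatine kinase, held no more than 20 counts and was at 0 in 3 libraries of the *Pax3* line. *Myh2* and *Ckm* were therefore not tested in either line, and *Myoz1*, a Z-disc protein of fast fibers with 6 to 12 counts in the *Pax3* line, was not tested there. Slow troponin isoforms exceeded their fast counterparts on this scale in both lines, with *Tnni1* at 47.3 ± 2.67 against *Tnni2* at 6.09 ± 0.61 in the *Carm1* line.

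**Figure D1:**
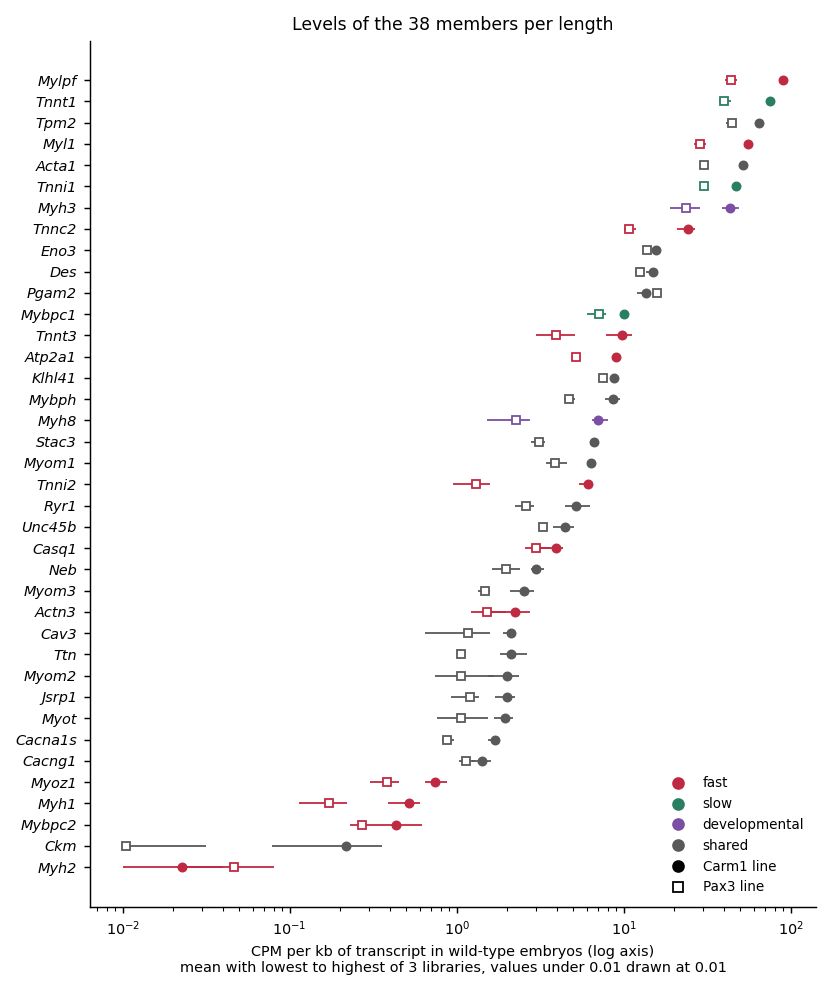
Level of each of the 38 members in wild-type embryos, as CPM per kb of transcript on a log axis, with filled circles for the mean of the 3 *Carm1* line libraries, open squares for the mean of the 3 *Pax3* line libraries, and bars from the lowest to the highest library. *Mylpf*, *Tnnt1* and *Tpm2* lie at the top and *Myh2* and *Ckm* at the bottom, and colors mark fast, slow, developmental and shared members.

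Promoters of muscle genes often carry an E-box, the binding sequence of MYOD1 and its relatives. Promoter windows of 300 bases, 250 before the start of the transcript and 50 after it, were taken from RefSeq on GRCm38.p6 for 28 members with 29 windows. Not matched were *Tnni2*, *Tnnt3*, *Neb*, *Actn3*, *Myoz1*, *Myot*, *Myom2*, *Cacng1*, *Stac3* and *Jsrp1*. The E-box CAGCTG, which reads the same on both strands, was in 17 of the 29 windows (58.6%) and in 16.3% of all 32851 windows. The wider form CANNTG, which includes CAGCTG and also reads alike on both strands, was in 89.7% and 72.3%. The CArG box, bound by serum response factor, was in only 2 of the 29 member windows (6.90%) and in 1.63% of all windows. The MEF2 site was also in only 2 of the 29 (6.90%) and in 0.56% of all. TATAAA on either strand was in 27.6% and 13.6%. The windows of 4 members are printed 5′ to 3′ on the strand of the gene, with capitals on CAGCTG, on the CArG box, on the MEF2 site and on TATAAA in either direction. They are shown because their genes fell most clearly in one or both lines, and they were chosen after the values were seen. *Acta1* is skeletal alpha-actin (chr8:123894726-123895025, minus strand), *Myl1* the fast myosin light chain (chr1:66945007-66945306, minus strand), *Klhl41* an assembly factor of nebulin (chr2:69669870-69670169, plus strand), and *Atp2a1* the fast calcium pump of the sarcoplasmic reticulum (chr7:126463024-126463323, minus strand).
Acta1: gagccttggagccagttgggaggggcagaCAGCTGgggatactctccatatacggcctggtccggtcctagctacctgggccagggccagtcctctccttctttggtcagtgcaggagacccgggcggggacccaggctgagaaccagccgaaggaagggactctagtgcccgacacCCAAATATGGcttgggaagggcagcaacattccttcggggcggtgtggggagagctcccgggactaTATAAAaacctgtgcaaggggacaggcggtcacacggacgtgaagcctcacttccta
Myl1: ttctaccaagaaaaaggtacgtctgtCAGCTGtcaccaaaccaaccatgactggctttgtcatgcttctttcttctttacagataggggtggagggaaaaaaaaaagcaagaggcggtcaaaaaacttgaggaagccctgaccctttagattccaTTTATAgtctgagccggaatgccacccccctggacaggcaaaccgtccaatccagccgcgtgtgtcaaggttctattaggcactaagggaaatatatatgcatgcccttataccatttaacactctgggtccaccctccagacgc
Klhl41: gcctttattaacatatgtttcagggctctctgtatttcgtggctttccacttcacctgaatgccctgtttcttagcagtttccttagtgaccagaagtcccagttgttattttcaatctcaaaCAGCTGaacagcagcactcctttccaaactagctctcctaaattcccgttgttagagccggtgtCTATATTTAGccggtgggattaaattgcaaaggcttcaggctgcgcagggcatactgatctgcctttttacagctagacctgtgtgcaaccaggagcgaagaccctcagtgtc
Atp2a1: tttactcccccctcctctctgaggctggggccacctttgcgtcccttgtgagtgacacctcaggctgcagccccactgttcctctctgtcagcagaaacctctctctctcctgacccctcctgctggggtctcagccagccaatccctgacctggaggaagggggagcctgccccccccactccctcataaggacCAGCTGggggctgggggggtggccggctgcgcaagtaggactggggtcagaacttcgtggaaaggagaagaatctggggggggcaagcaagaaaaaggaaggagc
The E-box began 221 bases before the start in *Acta1*, 224 in *Myl1*, 127 in *Klhl41* and 55 in *Atp2a1*. *Acta1* also held a CArG box from base 73 before the start, and *Klhl41* a MEF2 site from base 63. Members were also counted by the presence of the E-box. In the *Carm1* line, 10 of 15 tested members with CAGCTG and 8 of 11 without it were lower at an FDR adjusted P under 0.05 by edgeR. This was set against 7.83% of all genes tested, and the median log2 fold changes of these members were -0.39 and -0.40. In the *Pax3* line these were 10 of 15 and 7 of 11, against 10.5% of all genes tested, with medians of -0.64 and -0.57. A match is a description of the letters in the window and not a binding site.

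To see how the loss of *Carm1* bears on the contractile genes, *Carm1 KO/KO* embryos were compared with wild-type embryos of the same line. All 7 thin filament genes, actin included, all 5 myosin chains tested and both assembly chaperones fell in *Carm1 KO/KO* embryos. Of the 36 members tested, 20 fell past an FDR adjusted P of 0.05 in the quasi-likelihood test of edgeR, adjusted over all genes by the Benjamini-Hochberg method, where 7.83% of the 15811 genes tested were lower and 5.49% higher. With offsets for length and GC content the balance over all genes turned from 868 higher and 1238 lower to 1963 higher and 1302 lower, while 24 members were lower and none higher. None of the members rose by edgeR or DESeq2, and none was higher at an unadjusted P under 0.05. Log2 fold changes (mutant over wild-type) of the 36 members ran from -1.16 to 0.23 with a median of -0.34, against 0.0014 for all genes tested. In 22 of the 36, the 3 *Carm1 KO/KO* libraries lay below the 3 wild-type libraries, which held for 15.7% of all genes tested. Fast members had a median log2 fold change of -0.57 with 6 of 11 called, and the 3 slow members had -0.24 with 3 of 3 called. The shared members had -0.30 with 9 of 20 called. Summed over the 38 members, the level was 1119, 1144 and 1208 CPM in *Carm1 KO/KO* embryos and 1637, 1485 and 1417 CPM in wild-type embryos.

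**Figure D2:**
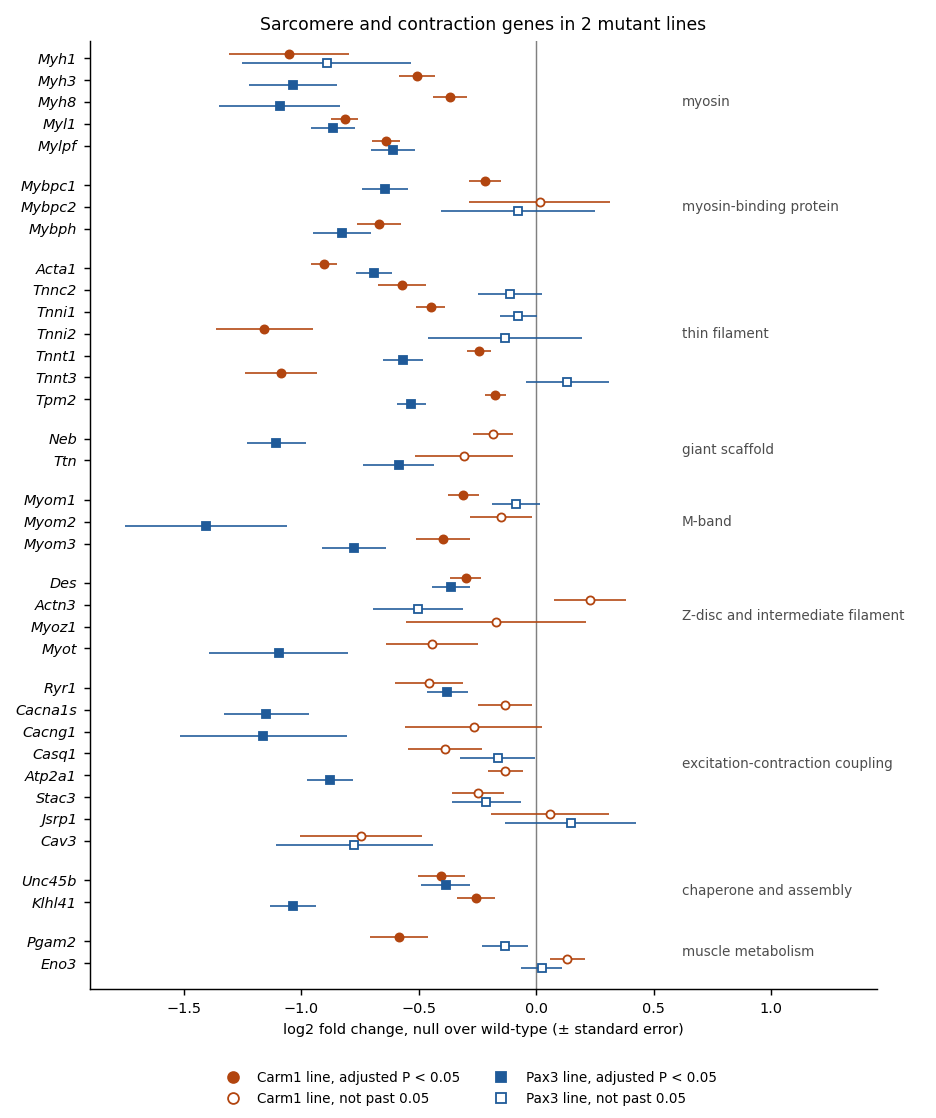
Log2 fold change, mutant (null) over wild-type, with its standard error for the 36 members tested in at least 1 line, grouped by role, with circles for the *Carm1* line and squares for the *Pax3* line and filled symbols for an FDR adjusted P under 0.05. In the *Carm1* line the thin filament and myosin genes are all filled and below 0, whereas in the *Pax3* line *Tnnc2*, *Tnni1*, *Tnni2* and *Tnnt3* are open and lie between -0.13 and 0.13.

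Heart markers were lower as well in this line. Of 12 cardiac markers 5 fell past the threshold and none rose, against 7.83% lower and 5.49% higher of all genes tested. At an unadjusted P under 0.05, 5 of the markers were lower and none higher, and 4 were lower by DESeq2. Their median log2 fold change was -0.23, and their summed level ranged from 256.8 to 263.0 CPM in *Carm1 KO/KO* embryos and from 316.8 to 343.4 CPM in wild-type embryos. The 3 called markers with the largest change were the cardiac troponin T gene *Tnnt2* (-0.51), the atrial myosin *Myh6* (-0.47) and the atrial light chain *Myl4* (-0.41), on the log2 scale. A set of 8 members that the heart also uses (*Acta1*, *Tnni1*, *Ttn*, *Myom1*, *Des*, *Unc45b*, *Cav3* and *Tpm2*, chosen after the values were seen) were then left out. Of the 28 others tested, 14 were called lower, against 7.83% of all genes tested. The part of the heart in the remaining changes was not tested.

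All genes of the thin filament fell. *Acta1*, the actin of skeletal muscle, had 41.8, 38.6 and 40.8 CPM in *Carm1 KO/KO* embryos and 73.7, 78.1 and 74.8 CPM in wild-type embryos. The 2 groups were far apart, with little spread within either. This was a change of -0.90 on the log2 scale with a standard error of 0.055 (FDR adjusted P = 1.1e-13), and it kept its call in all 15 alternative fits, between -0.93 and -0.87. *Tnni2*, the fast troponin I that inhibits the actin-myosin interaction, had 2.69, 1.62 and 2.003 CPM against 4.15, 4.90 and 5.02 CPM. *Tnnt3*, the fast troponin T that ties the troponin complex to tropomyosin, had 3.79, 6.05 and 5.07 CPM against 8.48, 10.92 and 12.04 CPM. Their log2 fold changes were -1.16 ± 0.21 and -1.09 ± 0.15 (standard errors), the largest falls among the members in this line, and neither pair of groups overlapped. Both rest on low counts, from 29 to 114 for *Tnni2* and from 69 to 254 for *Tnnt3*. *Tnnc2*, the calcium sensor of fast troponin, fell from 17.1 ± 2.12 to 11.6 ± 0.84 CPM (SD, n = 3 each).

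The slow troponins and tropomyosin showed smaller changes. *Tnni1*, the slow troponin I, had 39.2, 37.3 and 43.4 CPM in *Carm1 KO/KO* embryos and 51.8, 57.8 and 53.5 CPM in wild-type embryos, a log2 fold change of -0.45 ± 0.063 (standard error). *Tnnt1* had 66.1, 68.1 and 67.5 CPM against 75.6, 83.9 and 78.8 CPM. *Tpm2* had 118.9, 125.2 and 127.0 CPM against 137.6, 139.8 and 141.0 CPM. None of these groups overlapped, and the log2 fold changes of *Tnnt1* and *Tpm2* were -0.24 and -0.17. That of *Tpm2* was the smallest change among the called members, and it lost its call without *Carm1 KO/KO* replicate 1 (adjusted P = 0.083).

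All 5 myosin genes tested fell. *Myl1* had 32.2, 34.2 and 35.8 CPM in *Carm1 KO/KO* embryos and 59.5, 60.6 and 59.5 CPM in wild-type embryos, a log2 fold change of -0.82 ± 0.059. *Mylpf* fell from 69.1 ± 0.63 to 44.4 ± 3.64 CPM. The light chains thus changed by several times their standard errors. *Myh3* had 186.1, 180.0 and 185.7 CPM against 297.4, 254.9 and 232.5 CPM, and *Myh8* had 33.8, 32.3 and 33.9 CPM against 49.5, 39.9 and 40.3 CPM. Both heavy chains were highest in wild-type replicate 1, and the mutant libraries varied little. Their log2 fold changes were -0.51 and -0.37 (FDR adjusted P = 0.0012 and 5.9e-04), and 1 fit of all 12 libraries was the alternative that lost both. *Myh1*, a heavy chain of adult fast fibers, had 1.81, 1.62 and 1.06 CPM against 3.44, 2.36 and 3.66 CPM, with a log2 fold change of -1.05 ± 0.26 from 18 to 75 counts. The myosin heavy chain genes lie side by side on chromosome 11 and share long stretches of sequence, and how reads that fit several of them were counted is not given in the sources used here, so counts between them are uncertain.

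**Figure D3:**
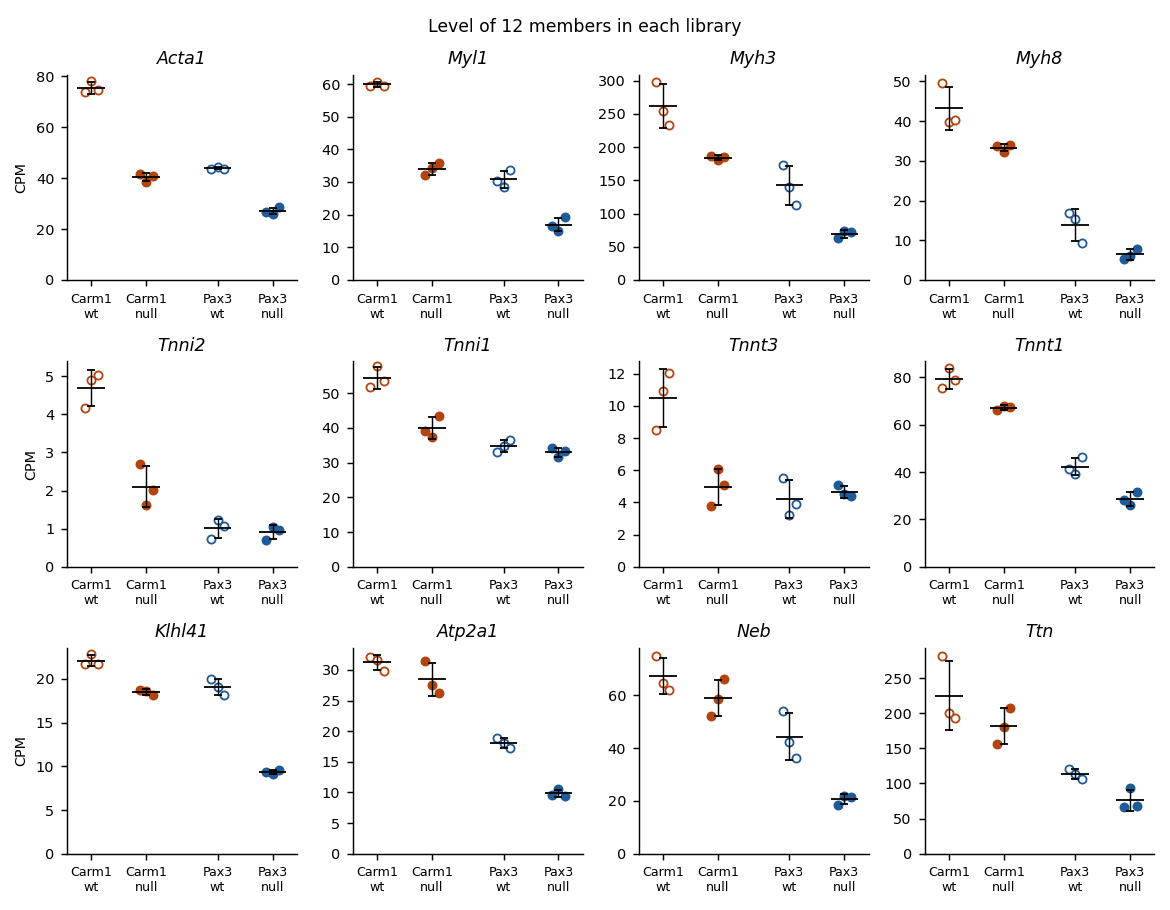
Level of 12 members in each library as CPM on linear axes from 0, with open circles for wild-type and filled circles for null embryos of each line, and bars for the mean ± SD of 3 libraries. *Acta1* and *Myl1* are lower in both mutants, *Tnni2*, *Tnnt3* and *Tnni1* are lower in the *Carm1* mutant with overlapping groups in the *Pax3* line, and *Klhl41*, *Atp2a1* and *Neb* show the larger drop in the *Pax3* line.

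Among myosin-binding proteins, *Mybph* fell from 20.1 ± 2.06 to 12.6 ± 0.40 CPM (log2 fold change -0.67). *Mybpc1*, the slow myosin-binding protein C, had 36.2, 31.9 and 32.8 CPM in *Carm1 KO/KO* embryos and 41.4, 37.4 and 38.9 CPM in wild-type embryos, a log2 fold change of -0.22 that lost its call in 5 of 15 alternatives. The fast form *Mybpc2* had 1.32, 1.51 and 1.94 CPM against 1.31, 1.16 and 2.24 CPM, and the groups overlapped. At the M-band, *Myom1* (35.8 ± 1.01 to 28.9 ± 0.45 CPM) and *Myom3* (14.1 ± 2.32 to 10.7 ± 0.84 CPM) fell, the latter with a call lost in 5 of 15 alternatives, and *Myom2* had a log2 fold change of -0.15 (adjusted P = 0.52). *Des*, the muscle intermediate filament protein desmin, had 36.2, 36.4 and 38.3 CPM against 48.5, 47.2 and 41.0 CPM, which do not overlap. Both chaperones fell. *Unc45b*, which folds myosin heads, went from 18.5 ± 2.69 to 13.9 ± 0.80 CPM. *Klhl41* had 18.8, 18.6 and 18.2 CPM against 21.8, 22.8 and 21.7 CPM, a log2 fold change of -0.26 that lost its call in 5 of 15 alternatives. Of the metabolic enzymes, *Pgam2*, the muscle phosphoglycerate mutase, fell from 11.5 ± 1.27 to 7.68 ± 0.83 CPM, and *Eno3*, the muscle enolase, had 26.8 ± 1.43 against 24.4 ± 0.59 CPM with a log2 fold change of 0.13 (adjusted P = 0.26).

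The giant scaffold proteins and the coupling genes did not pass the threshold in the *Carm1* line, although 5 of these 10 passed it in at least 1 alternative. *Ttn* had 156.1, 180.6 and 207.5 CPM in *Carm1 KO/KO* embryos and 281.4, 200.6 and 193.1 CPM in wild-type embryos. *Neb* had 52.4, 58.8 and 66.2 CPM against 75.1, 64.6 and 62.2 CPM. In both genes the groups overlapped, wild-type replicate 1 was the highest library, and the log2 fold changes were -0.31 (adjusted P = 0.46) and -0.18 (adjusted P = 0.19). With offsets for length and GC content, however, both were called lower by edgeR, together with *Ryr1* and *Cav3*, and *Neb* passed in 3 of 15 alternatives in all. None of the 8 genes of excitation-contraction coupling was called in the edgeR fit of this line, although 4 had an unadjusted P under 0.05 and DESeq2 called 1 of them, the ryanodine receptor *Ryr1*. It had 58.0 ± 2.31 CPM against 79.9 ± 14.9 CPM with a log2 fold change of -0.45 (adjusted P = 0.13 by edgeR), and it passed the threshold in 8 of 15 alternatives. The caveolin gene *Cav3* had a log2 fold change of -0.74 (adjusted P = 0.052) and passed in 3 of 15 alternatives. The calcium store protein gene *Casq1* had one of -0.39 (adjusted P = 0.099) and passed in 1 of 15, without wild-type replicate 2. Those of the voltage sensor subunits *Cacna1s* and *Cacng1* were -0.13 and -0.27, of *Atp2a1* -0.13, of the coupling adaptor *Stac3* -0.25 and of *Jsrp1* 0.058. Among Z-disc genes *Myot* had a log2 fold change of -0.44 (adjusted P = 0.14), *Actn3*, the fast alpha-actinin, of 0.23 (0.36) and *Myoz1* of -0.17 (0.83).

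The same comparison was made in the *Pax3* line, whose mutants lack a regulator of muscle precursors. The embryonic and perinatal heavy chains, both giant proteins, both chaperones, the voltage sensor and the calcium pump fell in *Pax3 Sp2H/Sp2H* embryos, while 4 of the 5 troponin genes did not pass the threshold. Of 35 members tested, 21 were lower past the threshold by edgeR's test, where 10.5% of the 15724 genes tested were lower and 14.0% higher. None of the members rose, and none was higher at an unadjusted P under 0.05 or by DESeq2. The median log2 fold change of the 35 was -0.58, against -0.0026 for all genes tested, and single values ran from -1.41 to 0.15. In 24 of the 35 every mutant library lay below every wild-type library, against 18.9% of all genes tested. By fiber class, 3 of 10 fast members were called, with a median of -0.33, and 2 of 3 slow members, with a median of -0.57. Of the shared members 14 of 20 were called, with a median of -0.64. With offsets for length and GC content the median of fast members was -0.54 here and -0.55 in the *Carm1* line. Summed over the 38 members, the level was 539.7, 602.0 and 584.7 CPM in *Pax3 Sp2H/Sp2H* embryos and 938.3, 863.8 and 826.5 CPM in wild-type embryos.

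Heart markers were higher in this line. Of the 12 cardiac markers 6 rose past the threshold and none fell, against 14.0% higher and 10.5% lower of all genes tested. None of the markers was lower at an unadjusted P under 0.05 or by DESeq2. Their summed level ranged from 315.4 to 362.7 CPM in *Pax3 Sp2H/Sp2H* embryos and from 254.2 to 271.1 CPM in wild-type embryos. The 3 called markers with the largest change were the atrial light chain *Myl7* (0.82), the natriuretic peptide gene *Nppa* (0.61) and the cardiac troponin I gene *Tnni3* (0.38), on the log2 scale. Without the same set of 8 members, 16 of 27 tested members were called lower, against 10.5% of all genes tested, with a median log2 fold change of -0.64. Other members that the heart may use were not left out. Of 8 smooth muscle markers, which include the member *Des*, 2 fell, namely *Des* and *Acta2* (log2 fold change -0.59). The part of heart or smooth muscle in the values of the shared members was not tested.

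Both developmental heavy chains were lower. *Myh3* had 62.5, 74.0 and 71.5 CPM in *Pax3 Sp2H/Sp2H* embryos and 172.8, 140.4 and 113.4 CPM in wild-type embryos. *Myh8* had 5.32, 6.10 and 7.89 CPM against 16.98, 15.23 and 9.37 CPM. The groups did not overlap in either gene, but the wild-type libraries were widely spread, with log2 fold changes of -1.03 ± 0.19 and -1.09 ± 0.26 (FDR adjusted P = 0.021 and 0.022). *Myh3* lost its call in 5 and *Myh8* in 6 of 15 alternatives. The light chains were steadier. *Myl1* had 16.5, 15.1 and 19.1 CPM against 30.4, 28.5 and 33.6 CPM (log2 fold change -0.87 ± 0.093), and *Mylpf* fell from 33.7 ± 2.84 to 22.1 ± 3.02 CPM (-0.61). *Acta1* had 26.9, 26.0 and 28.6 CPM against 43.6, 44.3 and 43.5 CPM, a log2 fold change of -0.69 ± 0.076. For *Myh1* the log2 fold change was -0.89 (adjusted P = 0.070) from 11 to 31 counts.

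The giant proteins fell in this line. *Neb*, which lines the thin filament, had 18.4, 21.8 and 21.5 CPM in *Pax3 Sp2H/Sp2H* embryos and 54.0, 42.5 and 36.4 CPM in wild-type embryos, a change of -1.11 ± 0.13 in log2 (FDR adjusted P = 3.6e-05) that kept its call in all 15 alternatives. *Ttn*, which spans from Z-disc to M-band, had 65.9, 93.5 and 68.1 CPM against 120.4, 113.9 and 106.9 CPM, a log2 fold change of -0.58 ± 0.15 (adjusted P = 0.043) that lost its call in 5 of 15. The M-band gene *Myom2* had 1.57, 2.28 and 2.29 CPM against 8.49, 3.996 and 3.78 CPM, the most negative log2 fold change among called members (-1.41 ± 0.35). Its wild-type replicate 1 stood well above the other two, and the call was lost in 3 alternatives, each without 1 of the mutant libraries. *Myom3* fell from 8.20 ± 0.71 to 4.78 ± 0.39 CPM, and *Myom1* had 20.8 ± 2.58 against 22.1 ± 3.27 CPM with overlapping groups.

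Genes of the Z-disc and of assembly fell in part. *Myot*, the Z-disc protein myotilin, had 1.52, 0.91 and 0.89 CPM in *Pax3 Sp2H/Sp2H* embryos and 3.42, 1.68 and 1.98 CPM in wild-type embryos, a log2 fold change of -1.10 ± 0.29 from 20 to 70 counts, and it lost its call without wild-type replicate 1 (adjusted P = 0.11). *Des* had 27.2, 30.9 and 30.0 CPM against 37.96, 40.02 and 35.4 CPM. *Klhl41* fell from 19.1 ± 0.87 to 9.32 ± 0.22 CPM with a log2 change of -1.03 ± 0.097. Its groups were tight and far apart, with the smallest adjusted P of any member in this line (1.5e-08). *Unc45b* had 9.70, 10.9 and 10.7 CPM against 13.6, 13.6 and 13.6 CPM, a log2 fold change of -0.39 that lost its call without mutant replicate 1 (adjusted P = 0.054). *Actn3* had 3.08 ± 0.39 against 4.41 ± 1.17 CPM (adjusted P = 0.055) and passed in 5 of 15 alternatives, and *Myoz1* had 0.32 ± 0.055 against 0.50 ± 0.096 CPM, with no test.

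Excitation-contraction coupling fell in part, with 4 of 8 genes called. *Cacna1s*, the pore and voltage sensor of the muscle calcium channel, had 2.06, 3.10 and 2.25 CPM in *Pax3 Sp2H/Sp2H* embryos and 6.00, 5.10 and 5.28 CPM in wild-type embryos. *Cacng1*, a subunit of the same channel, had 0.89, 0.77 and 0.25 CPM against 1.61, 1.39 and 1.29 CPM. Both groups lay apart, with log2 fold changes of -1.15 ± 0.18 and -1.16 ± 0.36, the latter from 6 to 33 counts and lost without wild-type replicate 1 or mutant replicate 3. *Atp2a1* fell from 18.1 ± 0.83 to 9.83 ± 0.60 CPM (log2 fold change -0.88 ± 0.099). *Ryr1* had 29.4, 31.8 and 30.8 CPM against 40.7, 44.8 and 34.3 CPM, a log2 fold change of -0.38 that lost its call in 1 fit of all 12 libraries (adjusted P = 0.054). The other 4 did not pass, with log2 fold changes of -0.77 for *Cav3* (adjusted P = 0.090), -0.16 for *Casq1*, -0.21 for *Stac3* and 0.15 for *Jsrp1*. Neither metabolic enzyme tested passed the threshold in the edgeR fit of this line or by DESeq2, and neither had an unadjusted P under 0.05. Their log2 fold changes were -0.13 for *Pgam2* and 0.023 for *Eno3*. *Pgam2* passed in 1 of 15 alternatives, the fit with offsets for length and GC content.

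The thin filament was split in the *Pax3* line. *Tnnt1* had 28.3, 26.0 and 31.6 CPM in *Pax3 Sp2H/Sp2H* embryos and 41.4, 39.3 and 46.5 CPM in wild-type embryos. *Tpm2* had 62.7, 69.1 and 68.4 CPM against 101.0, 88.8 and 99.2 CPM. Both fell with no overlap, with log2 fold changes of -0.57 and -0.53. *Tnni1* had 34.1, 31.6 and 33.2 CPM against 32.9, 34.9 and 36.4 CPM, *Tnni2* had 0.72, 1.05 and 0.98 CPM against 0.73, 1.22 and 1.07 CPM, and *Tnnt3* had 5.10, 4.51 and 4.37 CPM against 5.51, 3.24 and 3.91 CPM. The groups of all 3 overlapped, with log2 fold changes of -0.076, -0.13 and 0.13. *Tnnc2* had a log2 fold change of -0.11 (adjusted P = 0.60). With offsets for length and GC content, *Tnnc2*, *Tnni1*, *Actn3*, *Cav3* and *Pgam2* were called lower as well, which gave 26 called members. Among myosin-binding proteins, *Mybpc1* had 16.9, 17.2 and 19.4 CPM against 30.8, 29.4 and 23.6 CPM (log2 fold change -0.64), *Mybph* fell from 10.9 ± 0.94 to 6.10 ± 0.56 CPM (-0.83), and *Mybpc2* had 0.67, 1.14 and 0.98 CPM against 0.83, 0.93 and 1.16 CPM.

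Fast and slow isoforms of the same protein were then set against each other within each library, as the share of the counts of the pair that fell on the fast gene. Within the *Carm1* line the fast share of troponin I (*Tnni2* of *Tnni2* and *Tnni1*) was 6.42%, 4.18% and 4.42% in *Carm1 KO/KO* embryos and 7.42%, 7.82% and 8.58% in wild-type embryos. The fast share of troponin T (*Tnnt3* of *Tnnt3* and *Tnnt1*) was 5.42%, 8.16% and 6.98% against 10.1%, 11.5% and 13.3%. Every mutant library lay below every wild-type library for both, with differences of the mean log2 ratio of -0.74 and -0.85. The *Pax3* line gave another picture. Its fast share of troponin T was 15.2%, 14.8% and 12.2% in *Pax3 Sp2H/Sp2H* embryos and 11.8%, 7.63% and 7.76% in wild-type embryos, above in every mutant library, with a log2 difference of 0.74. Its fast share of troponin I was 2.71% ± 0.59 against 2.81% ± 0.60 (SD, n = 3 each), a log2 difference of -0.054 with overlapping groups. For myosin-binding protein C (*Mybpc2* of *Mybpc2* and *Mybpc1*) the shares were 4.55% ± 1.05 against 3.84% ± 1.40 in the *Carm1* line and 4.94% ± 1.21 against 3.46% ± 1.09 in the *Pax3* line, with overlap in both. The exact two-sided permutation test cannot go below P = 0.1 with 3 libraries against 3, and the 3 ratios without overlap reached that limit (adjusted P = 0.2 over 6 tests), so none passed the threshold. *Tnni1* is also used in the heart, whose markers were lower in the *Carm1* line and higher in the *Pax3* line. The part of the heart in the troponin I share was not tested.

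**Figure D4:**
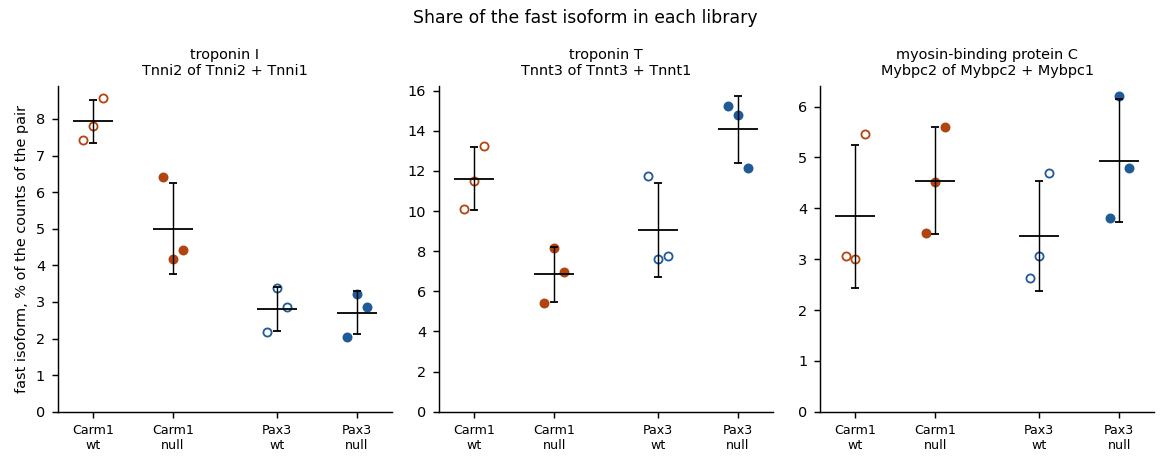
Share of the counts of each pair that fell on the fast isoform (in %) in each library, for troponin I, troponin T and myosin-binding protein C, with open circles for wild-type and filled circles for null embryos, and bars for the mean ± SD of 3 libraries. The troponin T share lies lower in the mutants of the *Carm1* line and higher in those of the *Pax3* line, and the troponin I share is lower in the mutants of the *Carm1* line alone without overlap.

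The lines were compared by testing the difference of their log2 fold changes in 1 fit of all 12 libraries. Line, strain and the laboratory that bred the mice cannot be told apart in this comparison. Wild-type embryos also differed, with summed member levels of 1417 to 1637 CPM in the *Carm1* line and 826.5 to 938.3 CPM in the *Pax3* line. The part of embryo stage or composition in the differences between the lines was not tested. Of 36 members tested, 11 differed between the lines past the threshold, against 19.1% of the 16292 genes tested. In 8 of them the value was lower in the *Pax3* line, and in 3 in the *Carm1* line, a balance that not every list below shares. Those lower in the *Pax3* line were *Cacna1s* (difference, *Carm1* line minus *Pax3* line, 1.03 ± 0.20 on the log2 scale), *Neb* (0.93 ± 0.22), *Klhl41* (0.79 ± 0.12), *Atp2a1* (0.76 ± 0.13), *Actn3* (0.74 ± 0.26), *Mybpc1* (0.43 ± 0.12), *Tpm2* (0.37 ± 0.076) and *Tnnt1* (0.34 ± 0.095). Those lower in the *Carm1* line were *Tnnt3* (-1.21 ± 0.25), *Pgam2* (-0.44 ± 0.15) and the slow troponin gene *Tnni1* (-0.36 ± 0.095). *Tnni2* had a difference of -1.01 ± 0.38 that missed the threshold (adjusted P = 0.055), and *Myom2* one of 1.27 ± 0.44 (0.070). For *Myl1* the difference was 0.062 ± 0.11 and for *Mylpf* -0.018 ± 0.11, so that their changes were not told apart. With offsets for length and GC content in this fit, added after the data had been seen, 10 members differed. *Tnni1* (-0.091, adjusted P = 0.54) and *Pgam2* (-0.100, adjusted P = 0.70) lost their calls, *Ttn* gained one (0.51) and *Tnnt3* kept its own (-0.97). Each line was also called by itself, and of the 35 members tested in both, 13 were lower in both lines, which is 65.0% of the 20 called in the *Carm1* line and 61.9% of the 21 called in the *Pax3* line. Over the 15461 genes tested in both, 187 (1.21%) were lower in both, which is 15.4% and 11.3% of the genes called lower in each line. The 13 members were *Acta1*, *Myh3*, *Myh8*, *Myl1*, *Mylpf*, *Mybpc1*, *Mybph*, *Tnnt1*, *Tpm2*, *Des*, *Myom3*, *Unc45b* and *Klhl41*. The calls of 6 of them (*Acta1*, *Myl1*, *Mylpf*, *Mybph*, *Tnnt1* and *Des*) held in both lines under every alternative, whereas 7 lost theirs in at least 1.

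**Figure D5:**
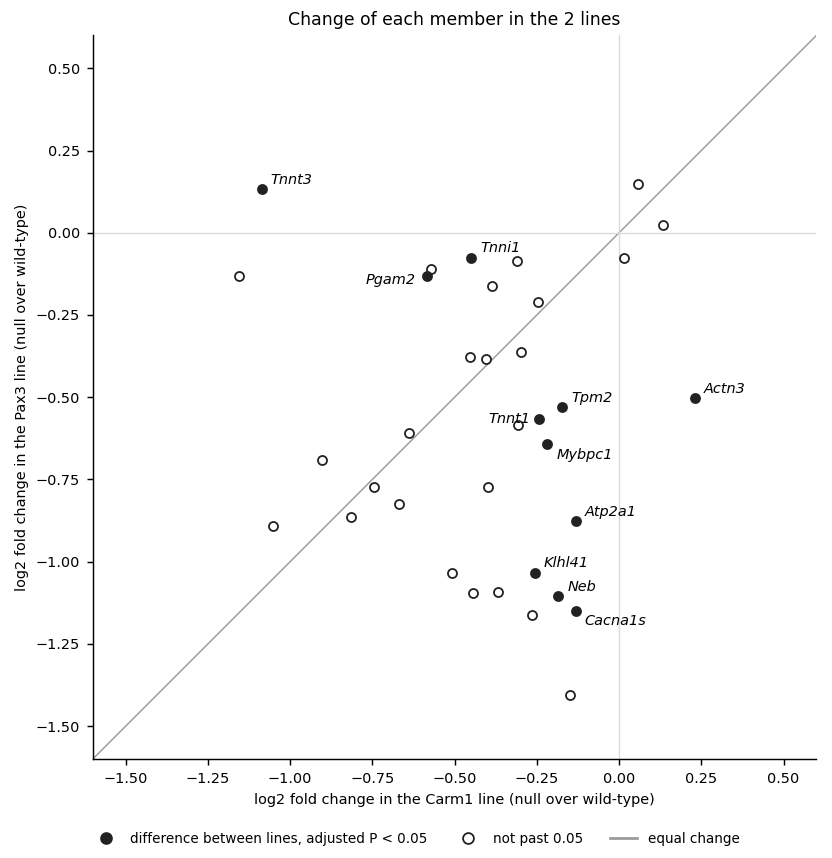
Log2 fold change of each of the 35 members tested in both lines, with the *Carm1* line on the horizontal and the *Pax3* line on the vertical axis. Filled and named points are the 11 members whose change differed between the lines at an FDR adjusted P under 0.05, and the diagonal marks equal change, with *Tnnt3* far above it and *Cacna1s* and *Neb* far below.

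Other muscle genes were read from lists by function. Of 32 further skeletal muscle contraction genes 29 were tested. In the *Carm1* line 10 were lower and none higher (median log2 fold change -0.30), against 7.83% of all genes tested lower. In the *Pax3* line 6 were lower and none higher (median -0.095), against 10.5% of all genes tested lower. None of them was higher at an unadjusted P under 0.05 in the *Carm1* line and 5 were in the *Pax3* line, and DESeq2 called 7 and 6 lower and none higher. The called genes with the largest change were *Trdn*, a partner of the ryanodine receptor (-1.07), *Nrap* (-0.86) and the Z-disc gene *Ldb3* (-0.71) in the *Carm1* line. In the *Pax3* line they were *Klhl40*, a relative of *Klhl41* that protects nebulin (-1.26), the leiomodin *Lmod3* (-0.997) and the alpha-actinin gene *Actn2* (-0.72). When the difference between the lines was tested, 8 of these 29 genes were lower in the *Carm1* line and 2 in the *Pax3* line. Among the 12 cardiac markers the difference passed for 6, each time lower in the *Carm1* line. Over all genes tested, 19.1% differed in either direction. The heart also forms sarcomeres, and its part in the values of the 29 contraction genes was not tested. Of 8 slow isoforms that the heart shares, 5 fell in the *Carm1* line, led by *Casq2* (-0.60), *Tnnc1* (-0.43) and *Myl3* (-0.34). In the *Pax3* line *Casq2* fell (-0.75) whereas the ventricular light chains *Myl3* (0.51) and *Myl2* (0.44) rose. Of the 8 smooth muscle markers 3 fell and 2 rose in the *Carm1* line, among them *Myh11* (-0.56) and *Tagln* (0.23). The summed level of these markers without *Des* ranged from 261.8 to 274.4 CPM in *Carm1 KO/KO* and from 269.8 to 280.1 CPM in wild-type embryos, and from 145.7 to 167.7 CPM in *Pax3 Sp2H/Sp2H* and from 186.4 to 198.3 CPM in wild-type embryos.

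The regulators of myogenesis act upstream of the contractile genes. Of 15 tested, 10 fell and none rose in the *Pax3* line, where none was higher at an unadjusted P under 0.05 or by DESeq2, while 2 fell and 2 rose in the *Carm1* line. Over all genes tested, 10.5% fell and 14.0% rose in the *Pax3* line, and 7.83% fell and 5.49% rose in the *Carm1* line. The 15 include the mutated gene *Pax3*, and without it 9 of 14 fell in the *Pax3* line. *Myod1*, which commits cells to muscle, had 11.1 ± 1.52 CPM in *Pax3 Sp2H/Sp2H* and 27.0 ± 1.77 CPM in wild-type embryos (log2 fold change -1.28), and 24.9 ± 1.25 against 26.0 ± 2.10 CPM in the *Carm1* line (-0.064, adjusted P = 0.66). *Myog*, which drives differentiation, fell in both, by 1.09 in the *Pax3* line and by 0.26 in the *Carm1* line on the log2 scale. *Mef2c* fell in both, by 0.61 and 0.27. The fusion genes *Mymx* (-1.21) and *Mymk* (-1.10) fell in the *Pax3* line, with -0.065 and -0.057 in the *Carm1* line. *Myf5* fell in the *Pax3* line (-0.75) and had -0.15 in the *Carm1* line, while *Myf6* was too low to test in either. The precursor genes *Pax3* (0.37) and *Pax7* (0.36) were the 2 regulators that rose in *Carm1 KO/KO* embryos, where *Pax7* passed in 12 of 15 alternatives. Both genes are also used in the neural tube. The neural progenitor gene *Sox2* rose too, by 0.33 in the *Carm1* line and by 0.29 in the *Pax3* line. The other nervous system genes read, *Elavl3* and *Tubb3*, did not rise in the *Carm1* line, with -0.16 (adjusted P = 0.011 by edgeR) and -0.11 (0.11). In the *Pax3* line they had 0.050 and -0.038 (adjusted P = 0.53 and 0.71). The part of neural tissue in the values of *Pax3* and *Pax7* was not tested. *Pax7* had a log2 fold change of -0.084 in the *Pax3* line (adjusted P = 0.49). Tested directly, the effect differed between the lines for 9 of the 15 (8 of 14 without *Pax3*), against 19.1% of all genes, each time lower in the *Pax3* line, among them *Myod1* (difference 1.22) and *Myog* (0.84).

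Genes of the neuromuscular junction act where the motor nerve meets the fiber. Of 8 tested, 4 fell in the *Pax3* line, against 10.5% of all genes tested there. They were the receptor kinase *Musk* (-1.31) and the acetylcholine receptor subunits *Chrna1* (-1.26), *Chrnd* (-1.14) and *Chrnb1* (-0.45), on the log2 scale. None was called in the *Carm1* line by edgeR or DESeq2, and 1 was lower at an unadjusted P under 0.05. The difference between the lines itself passed the threshold for 2 of the 8, *Chrna1* (1.17) and *Musk* (1.24), a share near the 19.1% of all genes.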

How the data were processed

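Polyadenylated RNA of 12 whole embryos at E12.5 was sequenced as paired reads. The authors aligned the reads to mm10 with STAR, counted those on exons with featureCounts and deposited raw counts per gene and library, without pooling. Tool versions, strand setting and the treatment of reads with several alignments are not given in the sources used here. Exons of 6 members overlap those of a gene on the other strand (*Atp2a1*, *Ckm*, *Des*, *Mybph*, *Myom1* and *Tnnc2*), and reads on them cannot be told apart. In each line, genes kept by filterByExpr were tested with edgeR 4.0.16 (R 4.3.3), using TMM factors and robust quasi-likelihood fits, at a threshold of 0.05 after Benjamini-Hochberg adjustment over all genes tested. DESeq2 1.42.0, which the study used, was an alternative. Other alternatives were RLE and upper-quartile factors, no count filter, at least 10 counts in every library, all 12 libraries in 1 fit, a replicate block, offsets for length and GC content, a covariate for Y-linked reads, and fits without each library. Y-linked counts were 4804 in *Carm1* line wild-type replicate 3. In the *Pax3* line they were 4447 and 6118 in wild-type replicates 2 and 3, and 6102 in mutant replicate 3. All other libraries held no more than 23, so sex was uneven between genotypes in both lines. The difference between lines was an interaction in a fit of 12 libraries. Its fit with offsets, and counts without members that the heart uses, were added after seeing the data. Gene symbols were matched to GENCODE on GRCm38 (21785 as written, 1297 by an older symbol, 338 not). Transcript length is that of the longest coding transcript. Members and lists were chosen with earlier results of these data known. All members were named, with values in every library for the targeted genes, the fast and slow pairs, *Acta1*, *Myh3*, *Myh8*, *Ttn* and *Neb*, and in each line the 5 smallest and 5 largest fold changes among called members. List genes named are 6 regulators and the 3 called genes with the largest change. P values cover the spread between 3 embryos a group.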

Additional observations from a re-analysis of the deposited data

Results flagged for a closer look

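The change differed between the lines, by the interaction test of all 12 libraries with edgeR and Benjamini-Hochberg adjustment, for 11 members. On the log2 scale, as *Carm1* line minus *Pax3* line, the differences were 0.43 for *Mybpc1*, -0.36 for *Tnni1*, 0.34 for *Tnnt1*, -1.21 for *Tnnt3*, 0.37 for *Tpm2*, 0.93 for *Neb*, 0.74 for *Actn3*, 1.03 for *Cacna1s*, 0.76 for *Atp2a1*, 0.79 for *Klhl41* and -0.44 for *Pgam2*. Over 17 alternatives, *Tnnt3*, *Tpm2*, *Cacna1s*, *Atp2a1* and *Klhl41* passed the threshold in all 17. *Tnni1*, *Neb* and *Tnnt1* passed in 16 and *Mybpc1* in 15, whereas *Actn3* passed in 9 and *Pgam2* in 6. The alternative that lost *Tnni1* was the fit with offsets for length and GC content (difference -0.091), which was chosen after seeing the data. Groups of 3 libraries are too small for a test of single outlying libraries.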

How the results depend on the processing

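No member changed direction in a called result under any of 15 alternatives per line, and none was called higher. With the replicate block, 21 members were lower in the *Carm1* line, 20 in the *Pax3* line (*Myh3* and *Myh8* lost, *Actn3* gained) and 9 differed between the lines. The labels do not say that equal numbers pair embryos. Deviations from group means in same-numbered libraries had correlations of -0.041, 0.00082 and -0.042 in the *Carm1* line. They were 0.13, -0.092 and 0.23 in the *Pax3* line. With 3 libraries a group, such values cannot decide whether the numbers pair the embryos. With offsets for length and GC content, 3265 genes were called in the *Carm1* line and 2441 in the *Pax3* line, against 2106 and 3851, and the *Pax3* line median was -0.78 for members and -0.54 for fast members; the cause was not tested. Leaving out 1 library gave 1224 to 2290 genes in the *Carm1* line, lowest without *Carm1 KO/KO* replicate 1 (1381 without replicate 2, 1349 without wild-type replicate 2), and 2454 to 4103 in the *Pax3* line, lowest without mutant replicate 3 (2565 without replicate 1). Members called lower ranged from 17 to 21 and from 17 to 20, and those that differed between the lines from 9 to 13. The median of members ranged from -0.37 to -0.29 and from -0.65 to -0.53, and that of fast members from -0.65 to -0.51 and, in the *Pax3* line, from -0.47 without wild-type replicate 1 to -0.25. The difference of the troponin I ratio in the *Pax3* line ranged from -0.23 to 0.14. Members under about 1 CPM (*Myh1*, *Myoz1*, *Cacng1*, *Mybpc2* and *Tnni2* in the *Pax3* line) are limited by depth.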

Other observations

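Markers of other tissues, chosen after the values were seen, also differed between the embryos. *Alb*, made by the fetal liver, stood at 514 ± 54.3 CPM in wild-type and at 194 ± 28.8 CPM in mutant embryos of the *Carm1* line. Its log2 fold change was -1.41 there (adjusted P = 0.0079 by edgeR) and -0.41 in the *Pax3* line (0.089). *Afp*, also of the fetal liver, fell in both lines, by 0.66 and by 0.38 on the log2 scale (adjusted P = 2.2e-07 and 7.0e-04). The embryonic globin gene *Hbb-bh1* had 468 ± 15.5 CPM in mutant and 189 ± 54.1 CPM in wild-type embryos of the *Carm1* line (log2 fold change 1.30, adjusted P = 0.037) and 0.25 in the *Pax3* line (0.16). The other 2 embryonic globin genes read did not pass in the *Carm1* line, with 1.10 for *Hba-x* (adjusted P = 0.077) and -0.048 for *Hbb-y* (0.87). The part of the stage or composition of the embryos in the levels of the contractile genes was not tested.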
